A study of Mus musculus with 14 samples.

Results

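Neutrophil precursors in the spleen were followed through 10 granule genes, *Elane*, *Mpo*, *Prtn3*, *Ctsg*, *Ltf*, *Camp*, *Ngp*, *Lcn2*, *Mmp8* and *Cebpe*, in splenocyte RNA of immunized mice, WT or *Sting* gt/gt. The 10 genes were taken as a named set, and each was found on the array through the RefSeq accession of its probes. They were 10 of the 24908 genes tested, and all 10 passed the filter on dim probes, with 11 probes in all because *Lcn2* has 2. Each of the 11 probes was well above background on all 14 arrays, and none was saturated.

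RNA came from 7 WT and 7 *Sting* gt/gt mice of the C57BL/6 strain, and each mouse had its own one-colour Agilent array. The age of 10 to 14 weeks given in the methods is that at which collagen-induced arthritis was started. All 14 mice, controls included, had received chicken collagen type II (CII) in complete Freund's adjuvant (CFA) by intradermal injection, and spleens were taken 2 weeks later, so no array shows an unimmunized spleen. *Sting* gt/gt, also called golden ticket (Tmem173gt), is an allele made with the mutagen ENU that leaves no detectable STING protein, the adaptor through which cytosolic DNA induces type I interferon. The WT mice were bought and the *Sting* gt/gt line came from another laboratory, so genotype and origin of the mice cannot be told apart. Red cells are lysed in the splenocyte preparation given in the methods. *Sting1* RNA was 2.35 to 2.85 in WT and 2.45 to 2.77 in *Sting* gt/gt arrays on the log2 scale defined below, so its level does not tell the genotypes apart and checks no label.

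In the bone marrow, and in the mouse spleen when blood formation spreads there, neutrophils fill their granules in an order set by transcription. Promyelocytes make the primary (azurophil) granule proteins, among them myeloperoxidase and the serine proteases elastase, proteinase 3 and cathepsin G. Myelocytes and metamyelocytes then make the secondary (specific) granule proteins such as lactoferrin, and mature neutrophils keep the proteins but transcribe most of these genes little. RNA of these genes in spleen is therefore read as a mark of precursors rather than of mature neutrophils. C/EBP factors, PU.1 and RUNX1 are known regulators of this programme, and C/EBP epsilon, the product of *Cebpe*, is needed for the secondary granule genes.

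Promoters of both granule classes are shown to place the motifs of these regulators. RefSeq promoters (build GRCm38.p6, 250 bases before to 50 after each gene's start) were found for 9 of the 10 genes. The 250 bases before the start are printed 5′ to 3′ on the gene's own strand for the 4 primary granule genes and for *Ltf* and *Ngp*, with motif matches in capitals. The sequences come from chr10:79886062-79886311 (+) for *Elane*, chr10:79879417-79879666 (+) for *Prtn3*, chr11:87793534-87793783 (+) for *Mpo*, chr14:56102575-56102824 (-) for *Ctsg*, chr9:111019042-111019291 (+) for *Ltf* and chr9:110419558-110419807 (+) for *Ngp*.
Elane: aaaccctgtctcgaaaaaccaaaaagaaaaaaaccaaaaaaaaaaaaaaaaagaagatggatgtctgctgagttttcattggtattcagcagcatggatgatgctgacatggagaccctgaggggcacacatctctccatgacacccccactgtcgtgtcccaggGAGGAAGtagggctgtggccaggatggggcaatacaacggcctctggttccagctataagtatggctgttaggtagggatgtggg
Prtn3: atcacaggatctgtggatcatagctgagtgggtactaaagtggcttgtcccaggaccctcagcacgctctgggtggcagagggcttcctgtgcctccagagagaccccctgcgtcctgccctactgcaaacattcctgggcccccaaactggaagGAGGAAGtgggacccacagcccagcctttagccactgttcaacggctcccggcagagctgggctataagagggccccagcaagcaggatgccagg
Mpo: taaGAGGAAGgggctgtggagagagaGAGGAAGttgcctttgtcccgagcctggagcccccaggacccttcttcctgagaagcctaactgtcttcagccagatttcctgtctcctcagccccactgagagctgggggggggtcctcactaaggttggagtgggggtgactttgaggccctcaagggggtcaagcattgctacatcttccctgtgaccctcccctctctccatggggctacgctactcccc
Ctsg: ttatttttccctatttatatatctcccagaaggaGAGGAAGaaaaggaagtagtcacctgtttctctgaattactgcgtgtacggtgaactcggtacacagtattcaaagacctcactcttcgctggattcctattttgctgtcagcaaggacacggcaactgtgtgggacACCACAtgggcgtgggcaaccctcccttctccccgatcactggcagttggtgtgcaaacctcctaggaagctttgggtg
Ltf: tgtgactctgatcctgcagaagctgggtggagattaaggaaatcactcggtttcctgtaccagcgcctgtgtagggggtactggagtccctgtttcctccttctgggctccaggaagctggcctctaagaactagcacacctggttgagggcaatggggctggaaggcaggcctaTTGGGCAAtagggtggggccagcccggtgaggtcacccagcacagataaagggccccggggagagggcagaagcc
Ngp: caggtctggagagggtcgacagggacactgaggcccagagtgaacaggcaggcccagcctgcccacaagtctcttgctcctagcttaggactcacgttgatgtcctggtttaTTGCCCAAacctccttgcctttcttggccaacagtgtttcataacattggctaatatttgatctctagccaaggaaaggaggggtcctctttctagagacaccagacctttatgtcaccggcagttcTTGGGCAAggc

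The PU.1 motif GAGGAAG stood in the promoters of all 4 primary granule genes. Its first base was at -85 from the start in *Elane*, -95 in *Prtn3*, -216 in *Ctsg*, and -247 and -224 in *Mpo*. The C/EBP motif TTGCNNAA was in none of these 4 windows, but it was in *Ltf* (-75), *Ngp* (-138 and -11), *Lcn2* (-216) and *Mmp8* (-19). *Lcn2* and *Mmp8* held the PU.1 motif as well, on the opposite strand, and *Camp* held none of the 3 motifs. The RUNX motif TGTGGT was found in *Ctsg* (-79) and, past the start, in *Ltf* (26). Searched on both strands of all 32851 promoters of this length, the C/EBP motif was in 10.8%, the PU.1 motif in 13.6% and the RUNX motif in 16.8%, against 4, 6 and 2 of the 9 granule gene promoters. The matches do not overlap one another. A match of letters describes these windows and shows no binding. *Prtn3* and *Elane* are neighbours on chromosome 10, *Ltf*, *Camp*, *Ngp* and *Mmp8* lie on chromosome 9, *Ctsg* and *Cebpe* on 14, *Mpo* on 11 and *Lcn2* on 2.

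Across all 7 mice a group, every granule gene had a higher mean in *Sting* gt/gt than in WT mice, but none of the 10 differences passed limma's test at an unadjusted p under 0.05. Over all genes, 3.48% passed that threshold. Values are log2 signal after subtraction of each array's 75th percentile, a difference of 1 on this scale is a 2-fold change, and levels are compared between mice and never between genes. *Elane*, which encodes neutrophil elastase, ran from 4.78 through a median of 5.06 to 5.14 in WT and from 4.50 through 5.23 to 6.16 in *Sting* gt/gt mice. *Mpo*, the peroxidase that makes hypochlorous acid, had 6.41, 6.63 and 7.36 as the lowest, median and highest value in WT against 6.39, 7.23 and 7.72 in *Sting* gt/gt mice. *Prtn3*, encoding proteinase 3, had 2.36, 2.70 and 3.27 in WT against 2.09, 3.36 and 3.91. In each of these genes the groups overlapped over the whole WT range, and *Sting* gt/gt mice held both the lowest and the highest value. *Ctsg*, encoding cathepsin G, showed the same order of extremes, with 5.66, 5.73 and 6.13 in WT and 5.42, 6.14 and 7.01 in *Sting* gt/gt mice.

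The log2 fold changes of these primary granule genes were the largest of the 10. They were 0.43 ± 0.26 (SE, n = 7 per group) for *Prtn3*, 0.37 ± 0.22 for *Ctsg*, 0.33 ± 0.25 for *Mpo* and 0.31 ± 0.22 for *Elane*, which are 1.35-, 1.29-, 1.26- and 1.24-fold. All 10 genes had a Benjamini-Hochberg adjusted p of 0.9998 over all genes in limma. Two-sided exact permutation tests over the 3432 ways to part the 14 arrays gave p from 0.153 (*Ctsg*) to 0.529 (*Mmp8*).

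The secondary granule genes differed less in their means. *Ltf*, the iron-binding lactoferrin, had 6.21, 6.38 and 6.92 in WT and 5.93, 6.72 and 7.09 in *Sting* gt/gt mice, a log2 fold change of 0.13 ± 0.18. *Camp*, the cathelicidin precursor, had 7.62, 7.96 and 8.31 against 7.53, 8.17 and 8.74, a log2 fold change of 0.18 ± 0.18. *Ngp*, neutrophilic granule protein, had 4.95, 5.30 and 5.70 against 4.59, 5.85 and 6.16, a log2 fold change of 0.24 ± 0.23. In these genes too the lowest and the highest of the 14 values were both *Sting* gt/gt arrays. *Lcn2*, which binds bacterial siderophores, had 5.99, 6.35 and 6.77 against 5.82, 6.69 and 7.19 on its brighter probe (0.19 ± 0.19), and its other probe gave 0.14 ± 0.24. *Mmp8*, the neutrophil collagenase, had 2.25, 2.49 and 2.78 against 1.91, 2.74 and 3.42 (0.14 ± 0.20). *Cebpe* had 3.99, 4.48 and 4.73 against 3.68, 4.77 and 5.25 (0.17 ± 0.23). The median log2 fold change of the 10 genes was 0.21, beside 0.02 over all genes, of which 54.5% were higher in *Sting* gt/gt mice. RNA of whole splenocytes cannot tell apart more precursors, more RNA per precursor, RNA from other cells and a changed mix of cells, and none of these differences passed. Within the deposited log2 table all 10 were also higher, by 0.10 to 0.39, and none passed.

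**Figure D1:**
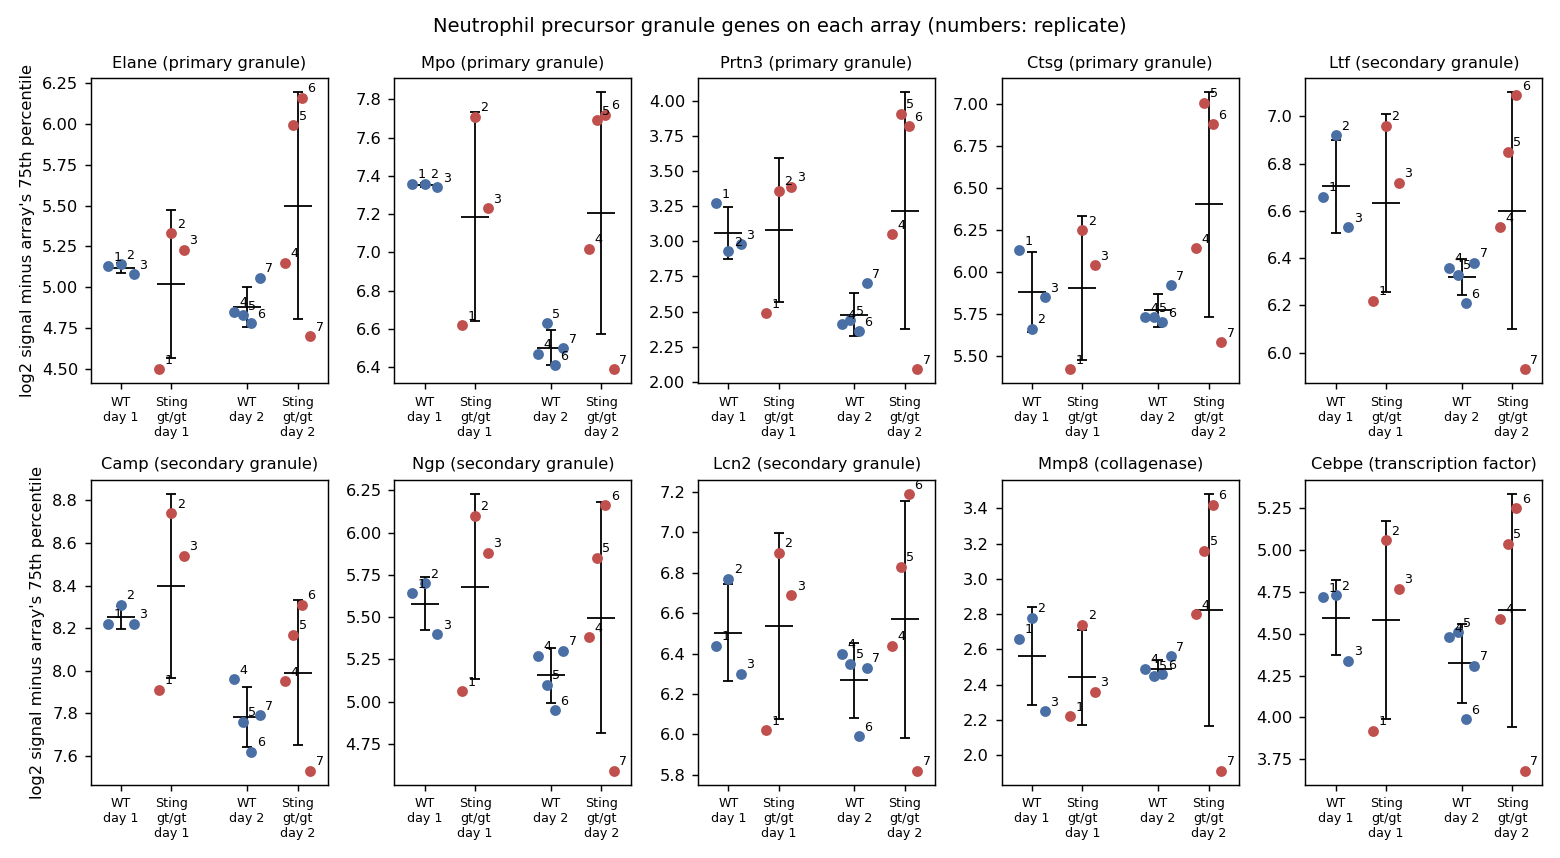
Log2 signal (vertical axis, each array's 75th percentile subtracted) of the 10 granule genes on every array, by genotype and scan day; points are mice with their replicate number, and the black dash and bar are the mean ± SD of 3 (day 1) or 4 (day 2) mice. *Sting* gt/gt replicates 5 and 6 stand above and replicate 7 below all 4 WT mice of scan day 2 in each panel.

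*Sting* gt/gt mice were more spread than WT mice in all 10 genes. The SD over the 7 mice was 0.155 to 0.459 in WT and 0.408 to 0.672 in *Sting* gt/gt mice, and the *Sting* gt/gt SD was the larger in 10 of 10 granule genes and in 59.2% of all genes. *Elane* had the smallest WT SD, 0.155, against 0.612. No WT array was the highest or the lowest for any granule gene. *Sting* gt/gt replicate 6 was highest for 7 genes, replicate 5 for *Prtn3* and *Ctsg* and replicate 2 for *Camp*, and replicate 7 was lowest for 8 genes and replicate 1 for *Elane* and *Ctsg*.

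The file headers place replicates 1 to 3 of both groups on 1 scan day and replicates 4 to 7 on another. The mice of the 2 days are different mice, so the genotype difference was also taken within each day. On scan day 1 the 10 genes lay on both sides of 0, with 5 above and 5 below the WT mean, log2 fold changes from -0.16 (*Mpo*) to 0.14 (*Camp*), and none past the unadjusted threshold (3.86% of all genes). *Mpo* read 7.36, 7.36 and 7.34 in the 3 WT mice and 6.62, 7.71 and 7.23 in *Sting* gt/gt replicates 1, 2 and 3. The WT mice were close to each other, and the *Sting* gt/gt mice lay on both sides of them. *Camp* read 8.22, 8.31 and 8.22 in WT against 7.91, 8.74 and 8.54. Replicate 1 was below and replicates 2 and 3 were above all 3 WT mice in *Elane* and *Camp* alike, with *Elane* at 5.13, 5.14 and 5.08 in WT against 4.50, 5.33 and 5.23. Without *Sting* gt/gt replicate 1, 9 of the 10 genes were higher on scan day 1, and *Camp* and *Ngp* passed the unadjusted threshold in limma (6.46% of all genes did), neither after adjustment. Without replicate 2 all 10 were lower, and 2 to 4 of the 10 were higher on this day with other scalings or in the deposited table. The smallest p that an exact permutation test of 3 against 3 can give is 0.10, and no value was under 0.60.

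On scan day 2 all 10 genes were higher in *Sting* gt/gt mice, and the 4 primary granule genes by the most. *Prtn3* read 2.41, 2.44, 2.36 and 2.70 in WT replicates 4 to 7 and 3.05, 3.91, 3.82 and 2.09 in *Sting* gt/gt replicates 4 to 7. *Mpo* read 6.47, 6.63, 6.41 and 6.50 against 7.02, 7.69, 7.72 and 6.39. In both genes *Sting* gt/gt replicates 4, 5 and 6 were above every WT mouse of the day and replicate 7 was below every one. *Elane* read 4.85, 4.83, 4.78 and 5.06 against 5.15, 5.99, 6.16 and 4.70, and *Ctsg* 5.73, 5.73, 5.70 and 5.92 against 6.14, 7.01, 6.88 and 5.58. The log2 fold changes were 0.74 ± 0.36 (SE) for *Prtn3*, 0.70 ± 0.27 for *Mpo*, 0.63 ± 0.29 for *Ctsg* and 0.62 ± 0.30 for *Elane*. Those of *Ltf*, *Camp*, *Ngp*, *Lcn2*, *Mmp8* and *Cebpe* were 0.21 to 0.34. *Mpo* alone passed the unadjusted threshold (limma, adjusted p = 0.167), 1 of 10 granule genes where 23.3% of all genes passed. The call on *Mpo* was lost without WT replicate 4, 6 or 7 or without *Sting* gt/gt replicate 5 or 6. Exact permutation tests of 4 against 4 gave p from 0.143 to 0.429, where 0.0286 is the smallest such a test can give.

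The calls on scan day 2 turned on *Sting* gt/gt replicate 7. It was below all 4 WT mice in 10 of 10 granule genes and in 26.1% of all genes, while replicates 5 and 6 were above all 4 WT mice in 10 of 10, and in 31.3% and 29.7% of all genes. Replicate 4 was above all 4 in 9 of 10, and in 22.9% of all genes, with *Camp* the exception at 7.95 against 7.96 in WT replicate 4. Without replicate 7, 10 of 10 granule genes passed the unadjusted threshold in limma beside 28.0% of all genes, and 4 of them, *Prtn3*, *Mpo*, *Ctsg* and *Mmp8*, passed after Benjamini-Hochberg adjustment beside 7.56% of all genes. The log2 fold changes were then 0.36 for *Camp* to 1.12 for *Prtn3*, and 9 of the 10 genes did not overlap between the remaining 3 *Sting* gt/gt mice and 4 WT mice, beside 13.2% of all genes that were higher without overlap. With all 8 arrays all 10 genes overlapped. Over both scan days, leaving out replicate 7 let *Prtn3* (0.61) and *Ctsg* (0.47) pass where 3.63% of all genes passed. Leaving out replicate 1 instead let *Ctsg* (0.50) and *Elane* (0.44) pass where 7.9% of all genes passed. No granule gene passed after adjustment in either case. Replicates 1 and 7 hold the lowest values of these same genes, so leaving either out raises the differences by construction. These counts show how far the calls hang on single arrays and are not a test of genotype.

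**Figure D2:**
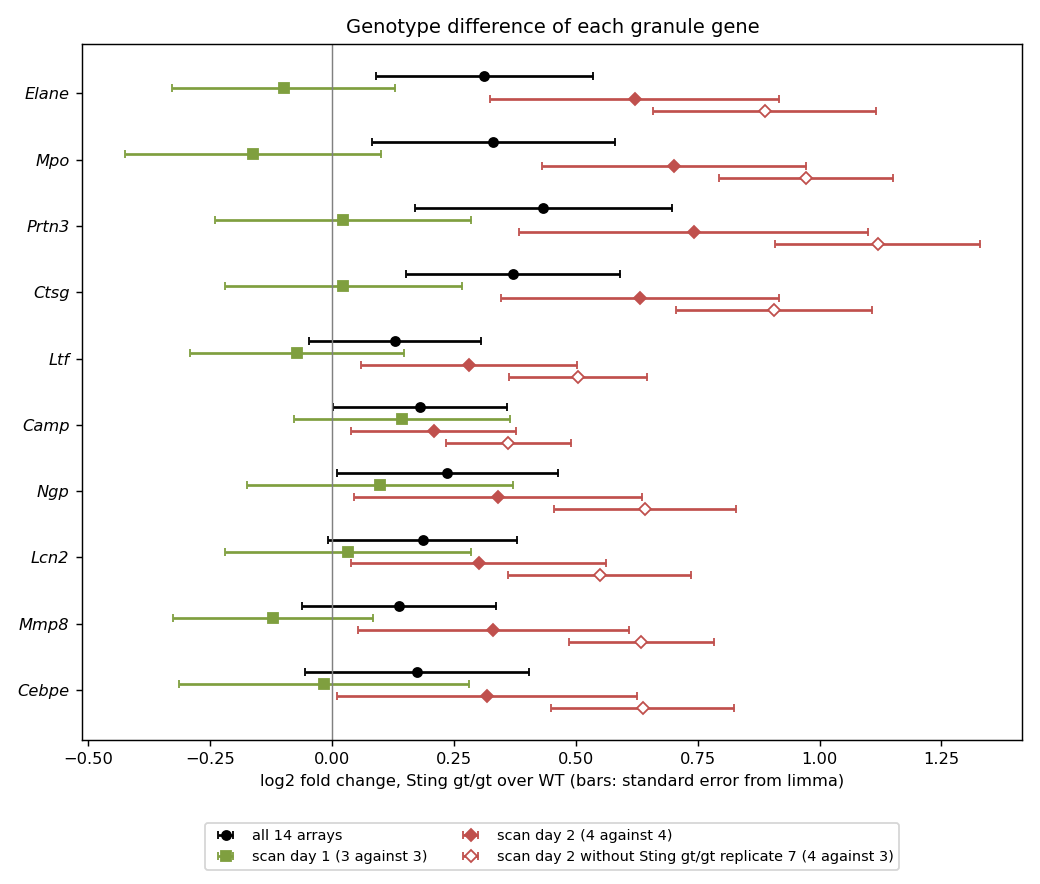
Log2 fold change of *Sting* gt/gt over WT mice (horizontal axis) for each granule gene, over all 14 arrays, within each scan day, and on scan day 2 without *Sting* gt/gt replicate 7; bars are limma's standard errors. Scan day 1 lies around 0 (-0.16 to 0.14), and scan day 2 lies at 0.21 to 0.74 with all 8 arrays and at 0.36 to 1.12 without replicate 7. That array was the lowest of its day in each gene, so its removal raises every difference by construction.

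The slides of the arrays go together with genotype on scan day 2. All 4 *Sting* gt/gt arrays of that day were on 1 slide and the 4 WT arrays were on 2 others, so slide and genotype cannot be told apart there. On that shared slide the 4 mice read *Elane*, the granule gene with the smallest WT SD, from 4.70 to 6.16. The 7 WT mice read it from 4.78 to 5.14 over all their slides, and the part of slide in either spread was not tested. Slides that held both genotypes had 5 arrays, all of scan day 1, and a fit with slide as a fixed block rested on them. It turned 9 of the 10 genes lower in *Sting* gt/gt mice, from -0.26 for *Mpo* and *Elane* to -0.05 for *Ngp*, with SEs of 0.25 to 0.48. *Camp* stayed higher, by 0.02, and no gene passed. With slide as a random block all 10 were higher, by 0.02 to 0.22, and none passed.

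The difference between the scan days was itself not past the threshold after adjustment for any granule gene. The genotype effect on scan day 2 minus that on scan day 1 was 0.07 (*Camp*) to 0.86 (*Mpo*), with limma's lowest adjusted p of 0.298 for *Mpo*, beside 0.767% of all genes. Exact permutation within days gave p from 0.0843 (*Mpo*) to 0.843 (*Camp*). The scan day effect common to both genotypes passed for 1 of the 10 genes after adjustment, beside 38.8% of all genes. That gene was *Camp*, at -0.44 ± 0.14 on day 2 (limma adjusted p = 0.0223). Its direction turned to 0.25 with quantile normalization and to 0.12 with normexp background correction. Its adjusted p was not under 0.05 with those, with median centring or with the deposited table. In the deposited table limma's adjusted p of this effect was 0.9999 for each of the 10 genes. Whether that table's normalization, which is not given, had removed scan day differences was not tested, so it cannot decide on *Camp*.

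The 10 genes moved together from mouse to mouse. After removal of each scan day's mean, the 45 pairs of granule genes had Pearson correlations of 0.779 (*Mmp8* with *Camp*) to 0.985 (*Ctsg* with *Prtn3*) over the 14 arrays, with a median of 0.901. Within the 4 primary granule genes the median of 6 pairs was 0.962 and within the 4 secondary granule genes it was 0.963. The 16 pairs across the classes had a median of 0.884 and did not go above 0.926, while every pair within the primary class was at 0.941 or more and every pair within the secondary class at 0.905 or more. These are descriptions over arrays that share slides and genotype. The probes also share an array's scaling, and 0.992% of 14719 other genes with a symbol reached a correlation of 0.9 with the mean of the standardised granule genes.

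**Figure D3:**
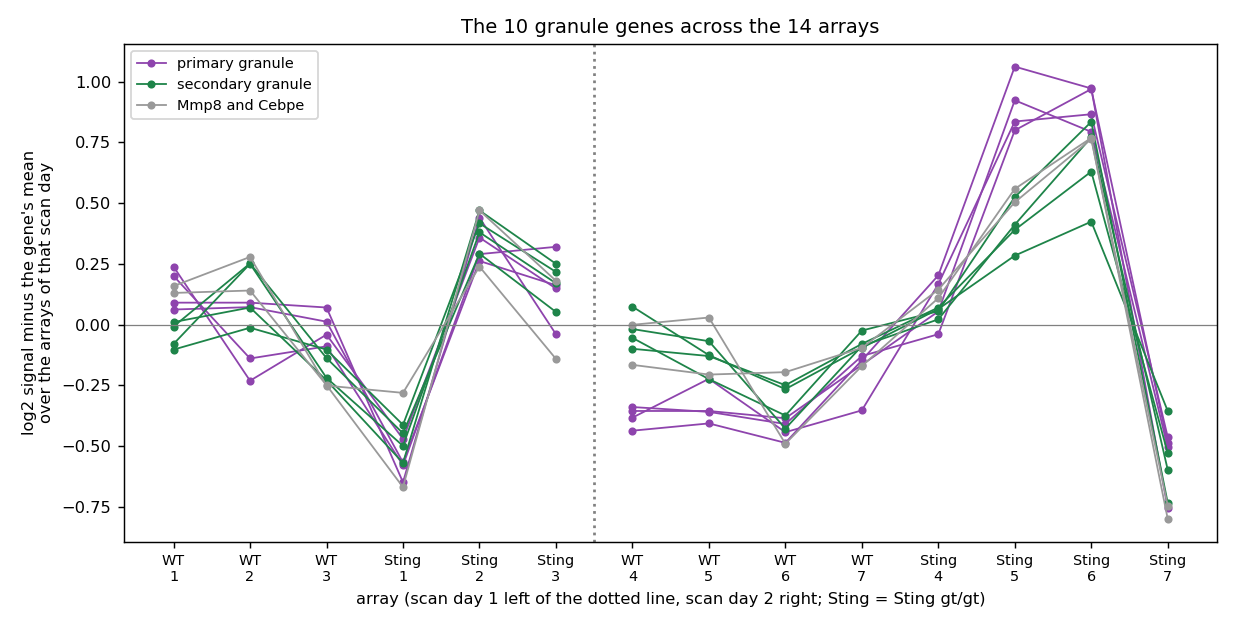
Log2 signal of each granule gene minus its mean over the arrays of the same scan day (vertical axis) across the 14 arrays (horizontal axis), with 1 line per gene and colours for granule class. The lines dip together at *Sting* gt/gt replicates 1 and 7 and stand high together at replicates 2, 5 and 6. On scan day 1 *Mmp8* was highest in WT replicate 2 and *Prtn3* in *Sting* gt/gt replicate 3.

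The 10 genes whose pattern was most like the granule genes were 1700020L24Rik (r = 0.983), *Adgrg3* (0.982), *Lin28a* (0.979), *Gpr160* (0.977), *Ms4a3* (0.975), *Septin5* (0.974), *Serpinb1a* (0.973), *Ifitm6* (0.972), *Ceacam10* (0.972) and *Mogat2* (0.970), over 14 arrays. *Ms4a3*, a membrane protein of granulocyte and monocyte progenitors, and *Serpinb1a*, an inhibitor of elastase, proteinase 3 and cathepsin G, were also on the list of other granule genes described below. None of the 10 passed the unadjusted threshold over all 14 arrays, and *Mogat2* had the lowest p, with a log2 fold change of 0.43 ± 0.22.

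Primary granule genes stood higher relative to secondary granule genes in all 4 *Sting* gt/gt mice of scan day 2 than in any WT mouse of that day. The mean log2 signal of *Elane*, *Mpo*, *Prtn3* and *Ctsg* minus that of *Ltf*, *Camp*, *Ngp* and *Lcn2* was -1.63, -1.48, -1.38 and -1.41 in WT replicates 4 to 7 and -1.24, -0.77, -1.04 and -1.28 in *Sting* gt/gt replicates 4 to 7. Only the change of this difference between mice can be read, since the probes' levels are not comparable. Replicate 7, lowest in each granule gene on that day, was therefore on the same side as its group by this measure. The group means differed by 0.39, and by 0.29 to 0.46 when single arrays of the day were left out, and the deposited table gave 0.36 with no overlap. On scan day 1 the measure was -1.27, -1.65 and -1.30 in WT and -1.54, -1.51 and -1.48 in *Sting* gt/gt mice, where the WT range held all 3 *Sting* gt/gt values and the means differed by -0.10. Over all 14 arrays the groups overlapped, at -1.65 to -1.27 in WT and -1.54 to -0.77 in *Sting* gt/gt mice. The measure was defined after the values were seen and is given with no test. It has no share over all genes to set beside it, and 23.3% of all genes passed the unadjusted threshold on scan day 2. On scan day 2 slide goes with genotype here as well.

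**Figure D4:**
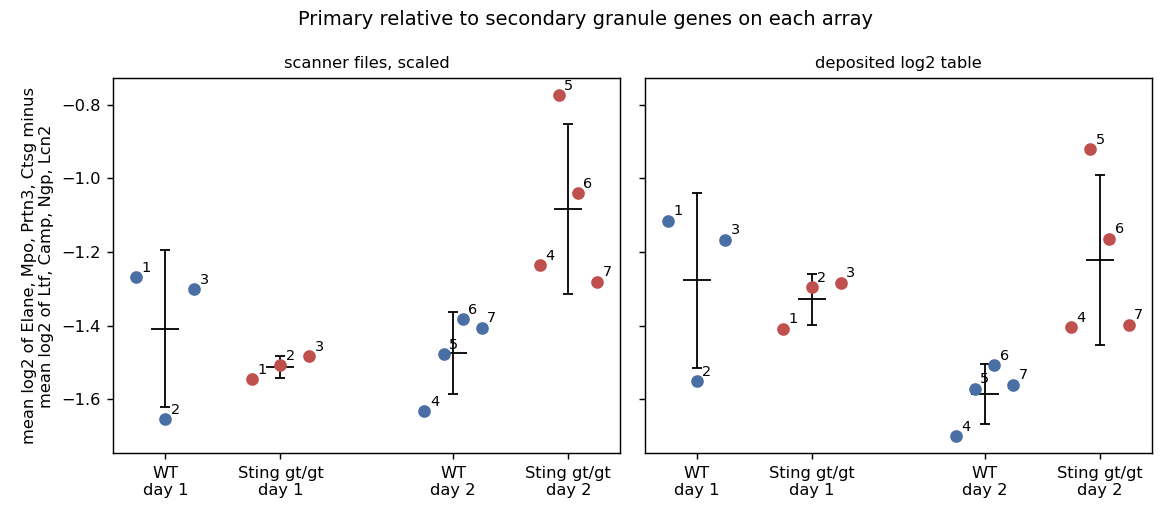
Mean log2 signal of the 4 primary minus the 4 secondary granule genes (vertical axis) on every array, from the scaled scanner files (left) and from the deposited table (right), with replicate numbers and mean ± SD by genotype and scan day. The 4 *Sting* gt/gt mice of day 2 lie from -1.28 to -0.77, above the 4 WT mice of that day at -1.63 to -1.38, and on day 1 the groups overlap.

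Other genes of the granule programme were read from lists of known members, and some genes are on 2 lists. The unadjusted threshold was passed by 3.48% of all genes over all arrays, 3.86% on scan day 1 and 23.3% on scan day 2. Of 21 tested genes for other granule content and granule membrane proteins, 20 were higher in *Sting* gt/gt mice over all 14 arrays and none passed, with a median log2 fold change of 0.18. The lowest p belonged to *Prss57*, the neutrophil serine protease 4 gene, at 0.45 ± 0.25, and to *Lyz2*, lysozyme M, at 0.43 ± 0.26. On scan day 1 this list split into 10 higher and 11 lower, and *Lyz2* passed as higher. In the mice of scan day 2, 19 of the 21 were higher and 4 passed, where 23.3% of all genes passed. These were *Prss57*, *Mmp9* and *Fcnb* as higher and *Itgam*, an integrin subunit of the phagocyte surface, as lower. The median correlation of the 21 genes with the granule genes was 0.88, with *Slc11a1* lowest at -0.36 and *Itgam* at -0.01.

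Among 24 tested regulators of granulopoiesis, 18 were higher over all arrays and 1 passed. That was *Id1*, an inhibitor of helix-loop-helix factors, which rose from 1.24 ± 0.18 (SD, n = 7) to 1.62 ± 0.30 (log2 fold change 0.38 ± 0.13, limma adjusted p = 0.9998). The median of the list was 0.10. *Gfi1*, a repressor that acts in neutrophil precursors, followed the granule genes most closely of the list (r = 0.963) and had a log2 fold change of 0.22 ± 0.21. Within scan day 2, *Cebpb*, *Myb*, *Id1* and *Cxcr2* passed as higher and *Csf3r*, the G-CSF receptor, as lower (-0.34 ± 0.10, limma adjusted p = 0.101), 5 of 24 where 23.3% of all genes passed. None of the 24 passed on scan day 1, where *Csf3r* was at 0.31 and *Cebpb* at -0.32.

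Inhibitors of granule proteases had 13 of 15 tested genes higher over all arrays, with a median of 0.15. *Stfa3*, a cysteine protease inhibitor of the stefin A family, passed at 0.53 ± 0.20 (limma adjusted p = 0.9998). Stefin A genes are near-identical copies, so a probe may read more than 1 of them. Within scan day 2, 7 of the 15 passed as higher, where 23.3% of all genes passed. Among the 7 was *Slpi*, a secreted inhibitor of elastase and cathepsin G, at 0.80 ± 0.15 (limma adjusted p = 0.0469). On scan day 1 none passed, and *Slpi* was at -0.18.

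Markers of other cells of the spleen were set beside the granule genes, and their part in the result was not tested. Mature neutrophil markers had 17 of 20 tested genes higher over all arrays and none past the threshold, with a median of 0.19. Within scan day 2, 6 of the 20 passed as higher (*Cxcr2*, *Mmp9*, *Trem1*, *Il1b*, *Hdc* and *Lrg1*) and *Csf3r* as lower, where 23.3% of all genes passed. The median of these markers was 0.32 on that day, and on scan day 1 none passed and the median was -0.03. Their median correlation with the granule genes was 0.76, and *Cd177* (0.962), *Fpr2* (0.955), *Mrgpra2b* (0.953) and *Il1r2* (0.930) were the closest. *Cd177* and *Mmp9* are also on the list of other granule genes, and *Cxcr2* and *Csf3r* on that of the regulators, so these lists are not separate counts. Over all arrays, the lowest p were those of *Clec4e* (0.29 ± 0.19) and *Mrgpra2b* (0.32 ± 0.23). The mean of the list was 2.30 to 2.95 in WT and 2.28 to 2.96 in *Sting* gt/gt mice. *S100a8* and *S100a9*, abundant in mature neutrophils, differed by 0.08 ± 0.30 and 0.07 ± 0.29, and *Ly6g*, a defining surface marker, has no probe here. Eosinophil, basophil and mast cell markers were higher in 14 of 14 tested genes with none past the threshold, led by *Cpa3* (0.37 ± 0.20) and *Prg3* (0.37 ± 0.21). Their median was 0.29, beside 0.21 for the granule genes. Within scan day 2 all 14 were higher and 5 passed, where 23.3% of all genes passed, with a median of 0.38 beside 0.34. For scan day 1, 10 of the 14 were higher and none passed, with a median of 0.17 beside 0.00. Their list mean was -0.56 to 0.10 in WT and -0.59 to 0.57 in *Sting* gt/gt mice, and their median correlation with the granule genes was 0.68. Early progenitor markers had 10 of 13 higher (median 0.04) and none past the threshold, with *Myb* (0.29 ± 0.15) and *Cd34* (0.23 ± 0.18) lowest in p. On scan day 2 all 13 were higher and 6 passed, where 23.3% of all genes passed, and on scan day 1 12 of 13 were lower. *Gata2*, 1 of the 6, is also counted among the eosinophil, basophil and mast cell markers, and *Myb* is also on the list of regulators.

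Erythroid precursor markers went the other way, with 15 of 17 tested genes lower over all arrays and 3 past the threshold. Among them was *Tfrc*, the transferrin receptor (-0.52 ± 0.24), and none passed after adjustment. The list mean was 3.61 to 4.20 in WT and 3.35 to 4.37 in *Sting* gt/gt mice, and replicate 1, lowest of the granule genes on scan day 1, had the highest at 4.37. Replicate 7, lowest on scan day 2, had 3.35. B cell markers were lower on scan day 2 in 10 of 10 genes, of which 8 passed, beside 23.3% of all genes. Their median on that day was -0.51, with a list mean of 1.76 to 2.31 in WT and 1.39 to 1.74 in *Sting* gt/gt mice. They were higher in 8 of 10 on scan day 1, where *Fcer2a* passed. Over all arrays *Ebf1*, a B lineage factor, passed at -0.34 ± 0.14. Monocyte and macrophage (14 of 18 higher), megakaryocyte (10 of 14 higher) and T cell (6 of 9 higher) lists had medians of 0.06, 0.02 and 0.04 and no gene past the threshold over all arrays. By day, 13 of 14 megakaryocyte markers were lower on scan day 1 (median -0.16) and 12 were higher on scan day 2 (0.20). The monocyte and macrophage markers correlated with the granule genes at -0.64 to 0.93, with a median of 0.03. Cell division genes were lower in 18 of 20, with *Kif11*, a mitotic kinesin, past the threshold at -0.34 ± 0.13.

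**Figure D5:**
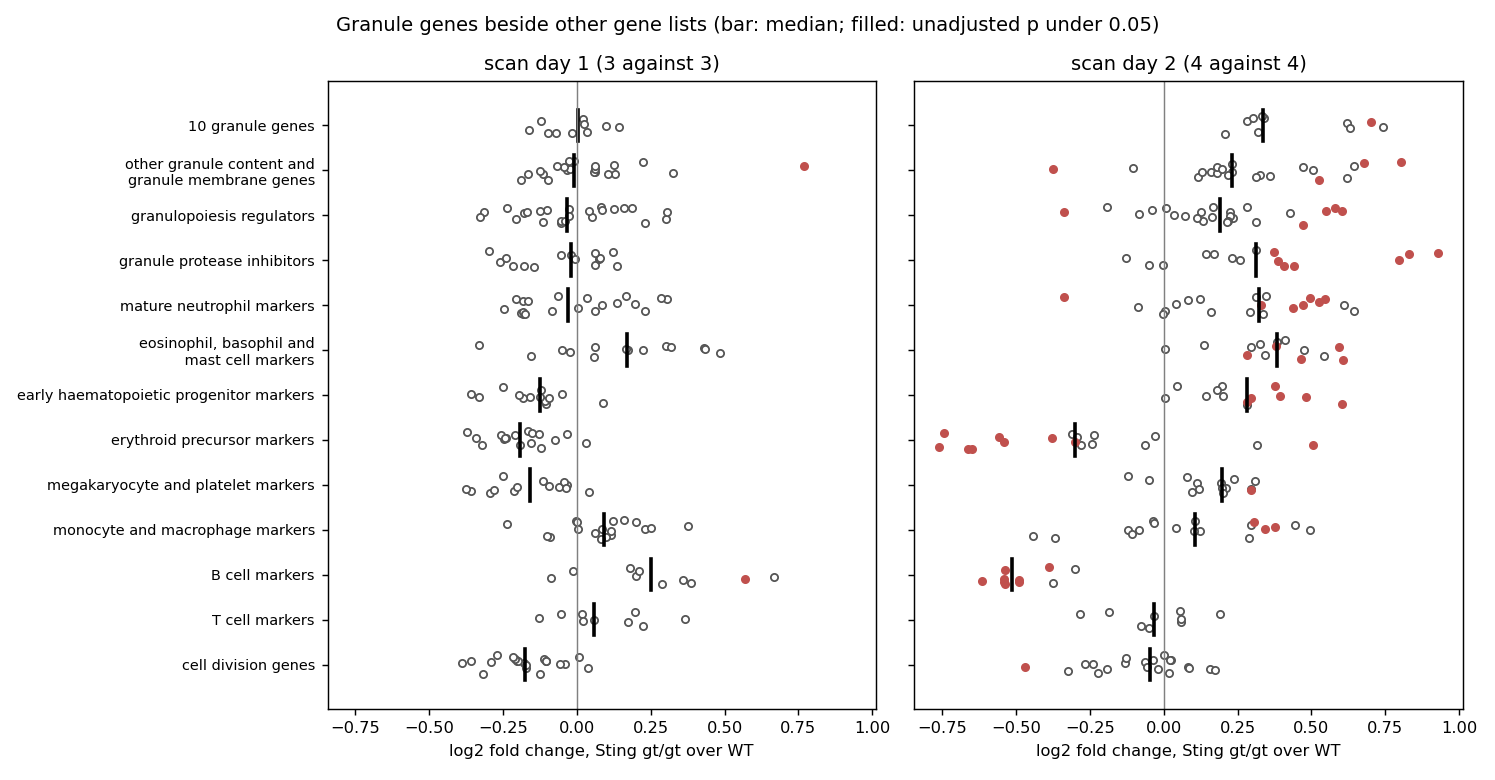
Log2 fold change of *Sting* gt/gt over WT mice (horizontal axis) for each gene of the granule set and of 12 companion lists (vertical axis), on scan day 1 (left) and scan day 2 (right); bars are list medians and filled points passed limma's unadjusted p under 0.05. The granule genes' median moves from 0.00 on day 1 to 0.34 on day 2, and that of the B cell markers from 0.25 to -0.51.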

How the data were processed

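Splenocyte RNA of 14 mice was hybridised to 14 one-colour arrays. Deposited intensity values are the authors' output of the scanner software Feature Extraction (version 11.0.1.1 in the headers), which subtracts background and does not scale between arrays. The authors also deposited a table of log2 values whose normalization is not given in the sources used here. It correlated with the scanner values at 0.997 to 0.999 per array. The 10 genes, the companion lists and the motifs were chosen with earlier results of these data known.

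Processed signals were converted to log2, and the 75th percentile of the array was then taken off (587 to 766 intensity units in WT, 562 to 697 in *Sting* gt/gt arrays). Outlier-flagged spots were dropped and repeated spots averaged. Of 56605 probes, the 31766 that exceeded background clearly in 7 or more of the 14 arrays entered the test. Per array, 30781 to 34400 probes were above background. Probes were named by unversioned accession through RefSeq (58.3% matched), and a gene was read from its brightest tested probe, with other probes of the 10 genes given beside it. Named companion genes are those past the unadjusted threshold or, where none was, the 2 with the lowest p, besides the 2 brightest mature neutrophil markers, and a few more were chosen after their values were seen, which are *Gfi1*, *Slpi*, *Slc11a1*, those named for a single scan day and the mature neutrophil markers named for their correlation. Some genes that this rule names are not reported here.

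Groups were compared with limma 3.58.1 (lmFit and eBayes, R 4.3.3) without covariates, fitted on all 24908 genes and tested on simulated data, with an unadjusted p under 0.05 as in the study and Benjamini-Hochberg adjustment beside it. Scan day and slide were read from the file headers. Deviations from the group mean correlated at 0.155 to 0.533 between arrays of the 2 genotypes with the same number, and the scan day is common to each pair. Within scan days these correlations lay on both sides of 0, at -0.41 to 0.25. Of the 7 WT arrays, 2 correlated best with their own number, and the main fit does not pair the arrays. With 1 array per mouse, the number of arrays limits the precision. Alternatives were other scalings, background correction, the deposited table, filters, probe rules, blocks and leaving out each array.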

Additional observations from a re-analysis of the deposited data

Results flagged for a closer look

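In scan day 2, a single WT array stood away from the other 3 in each of 2 granule genes. *Ctsg* was 5.70 to 5.73 in 3 WT mice and 5.92 in replicate 7, a gap of 0.8442 of the group's range, and *Lcn2* was 6.33 to 6.40 in 3 WT mice and 5.99 in replicate 6, a gap of 0.8301. By chance about 1 in 20 groups has an array this far out. The 10 genes were searched in both genotypes, so a few such gaps can come up by chance. *Sting* gt/gt replicate 7, although below all WT mice of its day, did not pass this criterion in any of the 10 genes.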

How the results depend on the processing

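All 10 granule genes stayed higher in *Sting* gt/gt mice in each alternative except slide as a fixed block, which gave -0.26 for *Elane*, -0.26 for *Mpo*, -0.18 for *Prtn3*, -0.10 for *Ctsg*, -0.14 for *Ltf*, -0.051 for *Ngp*, -0.076 for *Lcn2*, -0.072 for *Mmp8* and -0.16 for *Cebpe*. That fit compares genotypes on 5 arrays only. With the replicate number as a block, which pairs the arrays, 1416 of all genes passed the unadjusted threshold in place of 868 and no granule gene did (limma p from 0.144 to 0.486). The count over all genes was 1928 in the deposited table, 1812 with a scan day term, 445 when slide was a random block, and 496 to 1967 when single arrays were left out. The methods' test is a t-test, or a Mann-Whitney test where a Shapiro-Wilk test rejected normality in either group. It passed 1000 genes at an unadjusted p under 0.05, 1 after adjustment, and no granule gene. Granule genes past the threshold were 0 to 2 of 10 over all arrays, 0 to 2 on scan day 1 and 0 to 10 on scan day 2 when single arrays were left out. *Sting* gt/gt replicates 1 and 7 gave the 2 over all arrays, replicate 1 the 2 on scan day 1, and replicate 7 the 10. On scan day 2 the count of 1 became 2 with median centring, with quantile normalization, with the deposited table and with probes above background on all 14 arrays, each time *Mpo* and *Ctsg*, and 3 with normexp, which added *Elane*. The scan day effect on *Camp* passed in 0 of the fits with median centring, quantile normalization, normexp or the deposited table. The deposited table cannot decide on it, since limma's adjusted p there was 0.9999 for all 10 genes and its normalization is not given. No scaling, background, filter or probe alternative, the ones run for it, called the difference between scan days for any of the 10 genes after adjustment, while that of *Mpo* (0.86) passed the unadjusted threshold with median centring, no scaling, quantile normalization, normexp and the deposited table, at 0.89 (no scaling) to 1.05 (normexp). The comparison of primary with secondary granule genes was added after seeing the data. Its value ran from -0.227 (without WT replicate 2) to -0.0312 (normexp) on scan day 1, against -0.104, and from 0.289 to 0.457 on scan day 2. The cause of these changes was not tested. With 7 mice a group, and 3 or 4 a scan day, the differences over all arrays (0.13 to 0.43) were smaller than the SD of the *Sting* gt/gt mice for each of the 10 genes.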
